A study of Arabidopsis thaliana with 8 samples.

Results

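This is a comparison of late with early Arabidopsis siliques, the seed pods of the plant, made with target from 1 round of in vitro transcription (IVT). The 2 slides of the IVT regime were chosen by their titles from the 8 slides of the series. In the IVT regime, 5 µg of total RNA was copied into cDNA and transcribed once by T7 RNA polymerase into amino-allyl antisense RNA, which was coupled to Cy dyes. The remaining 6 slides held 2 each of the same comparison after 2 rounds of IVT from 0.05 µg (2IVT), after 20 cycles of PCR from 0.05 µg (PCR), and from 30 µg of unamplified RNA. The 90%-late sample held 90% silique RNA or tissue of 6 to 10 days after pollination (DAP) and 10% of the early sample, the proportion being given both by fresh weight and by RNA. The early sample was siliques of 2 to 5 DAP.

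Each slide had 90%-late target in Cy3 and early target in Cy5 without a dye swap, so that dye and stage cannot be told apart. Both IVT slides shared a single preparation of 90%-late target and differed in the preparation of early target. All 8 slides rested on the same pair of RNA samples, so the p-values below measure the spread between preparations and hybridizations, not between plants. In the amplified regimes that spread leaves out the preparation of 90%-late target, which was not repeated. Values are log2 ratios per probe of a long oligonucleotide array, and the sign was turned here so that positive means more signal from 90%-late siliques, opposite to the deposited sign. The dyes and the asymmetry of the ratios are the basis for that direction and for the log base, which no label states. In ratios of whole siliques, fewer cells of a type and less RNA per cell cannot be told apart.

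Over the days sampled, the seed passes from the growth of a liquid endosperm, integuments and a small embryo to the first embryo filling, while the silique wall elongates and then stops. Seed filling brings on storage proteins, the oleosins that coat oil bodies, the vacuolar enzymes that cut storage proteins to their final form, and the late embryogenesis abundant (LEA) proteins that accompany drying. Early growth draws on expansins and endoglucanases, which loosen or trim the cell wall, and on regulators of the integuments and the endosperm.

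Of 26912 probes, 23849 had a value on both IVT slides and are described here. A further 758 had a value on 1 slide, and 2305 had none. The median log2 ratio was -0.08 on both slides. The slides followed each other closely across probes, with Pearson's r = 0.971 over 23849 probes, which are not independent replicates. The SD between slides was 0.162 on the log2 scale over all probes. It was 0.152 for the 19766 probes under 2-fold and 0.302 for the 188 probes at 16-fold or more higher in 90%-late, so the highest ratios were the least exact. Only 89 probes differed by more than 2-fold between the slides.

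**Figure D1:**
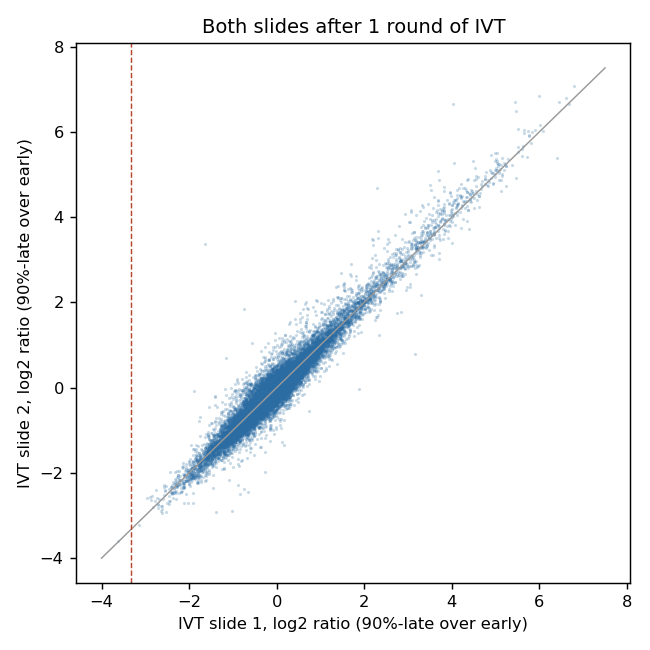
Log2 ratio (90%-late over early) on IVT slide 1 (x axis) against IVT slide 2 (y axis), 1 point for each of the 23849 probes. The grey line marks equal values, and the dashed line marks 10-fold higher in early (-3.32), the limit the admixture sets for genes present in early siliques alone; the points lie along the line of equal values and reach further to the late side.

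In the limma fit over all 8 slides, 5405 probes (22.7% of those tested) were higher in 90%-late and 7624 (32.0%) were lower, at a Benjamini-Hochberg adjusted p under 0.05. Of the 13029 called probes (54.6%), 13027 had the same sign on both slides. With each slide centred on its median, the calls were more nearly even, at 6311 higher and 6575 lower. Without IVT slide 2 the probes called lower numbered 4929. The sizes of the changes were unequal in the 2 directions. At 2-fold or more, 2127 probes (8.92%) were higher in 90%-late, all of them called, and 1956 were lower, of which 1955 (8.20%) were called, and with median centring the 2-fold counts were 2329 higher and 1634 lower. At 4-fold the counts were 869 higher and 169 lower, and at 16-fold 188 higher and 0 lower. Of those 188, 8 reached 64-fold. The 10% of early material in the 90%-late sample holds a gene of early siliques alone to 10-fold, or 3.32 on the log2 scale. A single probe, which has no gene symbol, went past that limit on the early side, with a mean of -3.62.

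**Figure D2:**
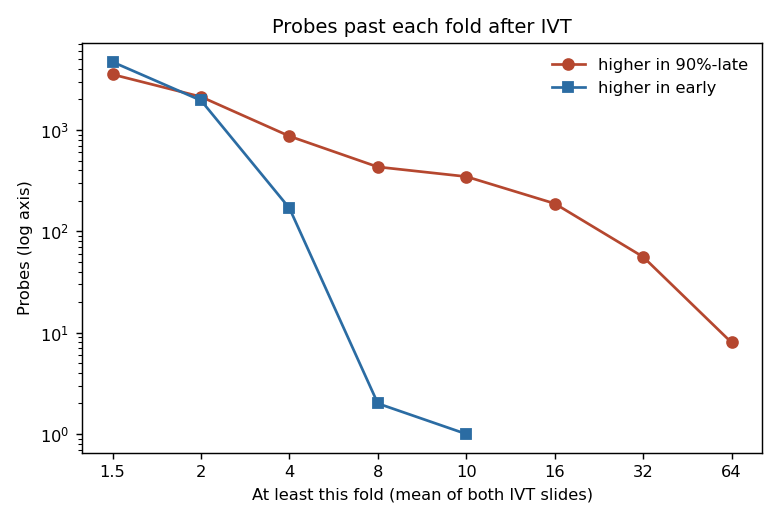
Number of probes (log axis) whose mean log2 ratio over both IVT slides reached at least each fold on the x axis, higher in 90%-late (circles) or higher in early (squares). The late curve runs out to 8 probes at 64-fold, and the early curve ends with 1 probe at 10-fold.

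The genes highest in 90%-late were led by AT3G04150, with log2 ratios of 6.78 and 7.08 on the 2 slides (mean 6.93 ± 0.21, SD, n = 2 slides here and below; limma adjusted p = 2.9e-10). FOLB3, a dihydroneopterin aldolase of folate synthesis, gave 6.67 and 6.65. GH9B15, a member of the family 9 endoglucanases that cut cellulose-like glucans, gave 6.45 and 6.70. All 3 stood above 64-fold. BGLU19, a beta-glucosidase, gave 5.83 and 5.99, and AT3G50990 (PER36, a peroxidase with a role in the mucilage cells of the seed coat) gave 5.51 and 5.53. The other measured gene listed for seed coat mucilage, ARA12, gave 0.14 and 0.12 and was not called.

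Several genes of secondary metabolism were nearly as far to the late side. AOP3, a dioxygenase that shapes glucosinolate side chains, gave 5.03 and 5.31. The list of glucosinolate genes had 2 of 5 members higher in 90%-late and 2 lower, with a median of -0.09. Over all probes the shares were 22.7% and 32.0%, and the median was -0.08. FACT, which joins caffeic acid to fatty alcohols, gave 5.20 and 5.11, and CHAT, which makes the leaf volatile hexenyl acetate, gave 4.99 and 5.09. Both acyltransferases differed by about 0.1 between slides. JMT, the methyltransferase that makes methyl jasmonate, was on 2 probes with means of 4.48 and 3.98.

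Several genes of seed filling lay in the same range. ALPHA-VPE, a vacuolar processing enzyme, gave 5.16 and 5.01 (mean 5.08 ± 0.11, adjusted p = 3.1e-10 by limma). PAP85, related to the vicilin storage proteins, gave 4.25 and 3.96. AT1G03890, the single measured member of the seed storage protein list, gave 4.53 and 5.15. SDH2-3, an iron-sulphur subunit of succinate dehydrogenase found in seeds, gave 4.41 and 4.53. EEL, a bZIP factor that acts on genes of late embryo development, gave 3.49 and 3.63, and all of these were called higher in 90%-late. Other genes listed for seed filling lay far lower. BZIP53, a bZIP factor listed with EEL, gave 0.58 and 0.35 and was called higher, while FATB, a thioesterase that releases fatty acids in the plastid, was on 2 probes with means of -0.49, called lower, and -0.44, not called.

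LEA proteins, which protect cells against drying, were mostly higher in 90%-late. Of 20 measured members, 17 were higher in 90%-late and 3 lower, against 22.7% and 32.0% of all probes, and their median log2 ratio was 2.75, against -0.08 over all probes. AT3G15670 led them with 6.39 and 5.39, followed by the dehydrin gene named LEA with 4.85 and 4.83. AT3G17520 gave 4.60 and 4.94, and AT5G44310 gave 4.37 and 4.90. The 3 that were lower in 90%-late were AT2G46140 (-1.08 and -0.99), AT2G44060 (-1.07 and -0.96) and AT4G39130 (-0.66 and -0.37). Every one of the 20 passed the test in one direction or the other.

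Of 5 oil body genes, 4 were higher in 90%-late and AT3G18570, at -0.11 and -0.19, was not called. OLEO3 gave 3.70 and 3.16 and AT3G01570, an oleosin, gave 3.21 and 2.83. AT1G48990 gave 2.52 and 2.81, and AT2G25890 gave 2.32 and 2.75, so the 4 called genes lay within about 1 log2 unit of each other.

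The 4 vacuolar processing enzymes spread much more widely. BETA-VPE, the main seed enzyme of the family, gave 3.60 and 3.61, below ALPHA-VPE. GAMMA-VPE, known from vegetative tissue, gave 0.73 and 0.76 and was called. DELTA-VPE, known from the seed coat, gave 0.24 and 0.25 (mean 0.25, adjusted p = 0.076 by limma) and was not called.

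Genes of fruit and supply tissue were also among the late ones. ADPG1, a polygalacturonase of pod opening, gave 4.07 and 3.82. SPT, a bHLH factor of carpel margins, gave 1.72 and 2.25, whereas its relative ALC, at -0.14 and -0.22, was not called. CYP78A9, a cytochrome P450 that promotes fruit growth when overexpressed, gave 3.45 and 4.31. Among sugar transporters, 7 of 19 measured probes were higher in 90%-late and 5 lower, against 22.7% and 32.0% of all probes, with a median of 0.09. SWEET15 (under the symbol SAG29, outside those 19) and SWEET11, which export sucrose towards the embryo, gave 3.51 and 4.75, and 1.81 and 2.52, so that both slides were well above 0 but far apart. SWEET13 gave 3.37 and 3.43.

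Among enzymes that add or remove sugars, more members were higher in 90%-late than lower. Of 19 beta-glucosidase probes, 11 were higher and 2 lower, against 22.7% and 32.0% of all probes, with a median of 0.42. Of 47 UGT glycosyltransferases, which attach sugars to hormones and secondary metabolites, 24 were higher and 10 lower, with a median of 0.38 against -0.08 over all probes. UGT73C2 led with 3.60 and 3.61, and UGT76E12 gave 3.56 and 3.49, while UGT73C6 lay lowest with -1.35 and -1.31.

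The lowest ratios belonged to genes of early siliques. AT4G04545 gave -2.82 and -2.80 (mean -2.81, adjusted p = 3.2e-08 by limma). CSLA01, a cellulose synthase-like gene of the mannan-making A group, gave -2.71 and -2.83. INO, a YABBY factor needed for the outer integument of the ovule, gave -2.38 and -2.47. WSD1, which makes wax esters of the plant surface, gave -2.14 and -2.36. GLC (GLAUCE), known from a mutant with embryos that grow without endosperm, gave -2.29 and -2.23, and all of these were called.

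Of the genes that loosen the cell wall, most expansins were on the early side. Of 21 expansins, 13 were lower in 90%-late and 3 higher, against 32.0% and 22.7% of all probes, and their median was -0.91. EXPB4 gave -2.28 and -2.09 and EXLA2 gave -2.06 and -2.15. The family also held EXPA24, with 3.82 and 4.16, and EXPA9, with 1.79 on both slides, so members lay at opposite ends of the range. The family 9 endoglucanases were split in the same manner. Of 17 members 9 were lower and 4 higher, from GH9B9 at -2.13 and -2.08 to GH9B15, described above, and GH9C1 at 3.92 and 3.82. The xyloglucan endotransglucosylases, which cut and rejoin wall xyloglucan, went both ways. Of 7 measured, XTH29 (1.61 and 1.62) and XTH20 (1.45 and 1.40) were called higher in 90%-late, XTH32 (-0.98 on both slides) was called lower and 4 were not called, with a median of -0.18.

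The serine carboxypeptidase-like family, named for its kinship to peptidases although some members are acyltransferases, had 13 of 30 members lower in 90%-late and 4 higher, with a median of -0.27; the share lower was not far from the 32.0% of all probes. The trichome birefringence-like proteins, several of which acetylate wall polysaccharides, had 13 of 20 lower and 2 higher, with a median of -0.83. The TRM proteins, which bind microtubules and help place the division plane, had 7 of 11 lower and 1 higher, with a median of -0.96. Those last 2 families were picked after the values were seen, and their counts are given as a description. The tubulins showed little: of 23 probes, 17 of them repeated spots of TUA1, 1 was higher and 1 lower.

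**Figure D3:**
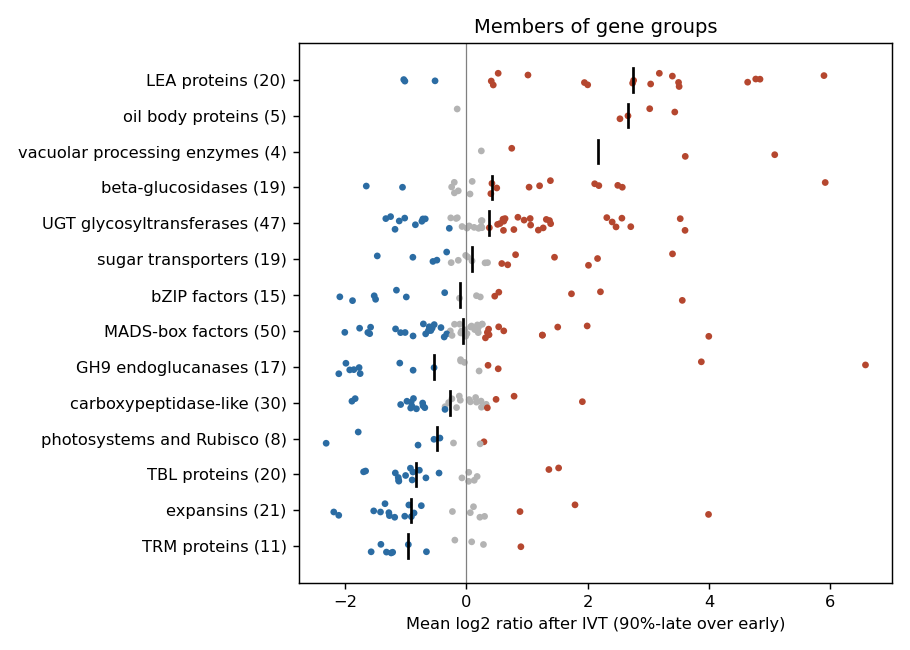
Mean log2 ratio over both IVT slides (x axis, 90%-late over early) of the members of 14 gene groups, 1 point per probe, with the number of probes in brackets. Points are red where called higher in 90%-late, blue where called lower and grey where not called, and the black bars mark medians; LEA proteins have the highest median (2.75) and TRM proteins the lowest (-0.96).

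The MADS-box factors, which include regulators of the young endosperm, were called in both directions at shares close to those of all probes. Of 50 measured, 19 were lower in 90%-late, 11 higher and 20 not called, against 32.0% lower and 22.7% higher over all probes, and the median of -0.06 was close to that of all probes. AGL36, a maternally expressed gene of the endosperm, gave -1.54 and -1.65. AGL62, which delays the formation of walls in the endosperm, gave -1.12 and -1.22, and PHE1, a paternally expressed gene of the endosperm, gave -0.50 and -0.67. At the other end AGL67 gave 3.93 and 4.06.

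Other genes that the study names for endosperm or embryo lay on both sides. The list of such genes held 17 loci, but only 5, PHE1 among them, had a measured probe with a symbol. AT5G46950 gave -1.72 and -1.44, and EXPA21 gave -1.65 and -1.41, both called lower. AT2G41000 gave 0.02 and -0.03 and was not called. RR21, a response regulator of cytokinin signalling, gave 2.14 and 2.80 and was called higher. Among genes the study does not name, MPC, a maternally expressed gene related to the poly(A)-binding proteins, gave -1.84 and -2.01.

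Of the flavonoid genes of the seed coat, BAN, the anthocyanidin reductase of tannin synthesis, gave -1.53 and -1.37, and CHIL gave -0.90 and -0.89. Both were called lower in 90%-late, while DFR, at -0.31 and -0.20, was not called. ACT11, an actin of reproductive tissue, gave -1.56 and -1.72, and the thionin THI2.1, an antimicrobial peptide, gave -1.92 and -2.03. The bZIP factors were spread from bZIP43, at -1.96 and -2.21, to EEL, with 7 of 15 lower and 5 higher, against 32.0% and 22.7% of all probes.

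Photosynthesis genes were measured less evenly. Of 8 probes, 5 were lower in 90%-late and 1 higher, against 32.0% and 22.7% of all probes. Their median was -0.49 after IVT, but 0.17 unamplified, 0.01 after 2IVT and -0.21 after PCR. RCA, the activase of Rubisco, gave -1.91 and -2.71, and PSAE-1, a subunit of photosystem I, gave -1.79 and -1.77. PSAN gave -1.40 and -0.19, and PSBY gave -0.07 and -1.0, so for these subunits 1 slide carried most of the difference.

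Hormone genes went both ways. Of 15 auxin genes, 6 were higher in 90%-late and 4 lower, against 22.7% and 32.0% of all probes, with a median of -0.04. GH3.9, of a family that joins auxin to amino acids, gave 3.13 and 2.96, and YUC4, an enzyme of auxin synthesis, gave 1.97 and 2.14. IAA20, of the Aux/IAA repressor family, gave -1.64 and -2.19, so auxin genes stood at both ends.

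Over all probes 22.7% were higher in 90%-late and 32.0% lower. Of 10 genes taken by symbol as defensins or defensin-like, 4 were higher and 1 lower. LCR27 gave 3.41 and 3.58 and PDF1.2 gave 2.63 and 3.13. The 1 called lower, PDF1B (-0.68 and -0.67), is a peptide deformylase that shares the symbol pattern and is not a defensin. The means of PDF1.2 in the other regimes were 0.33 unamplified, 0.27 after 2IVT and 0.35 after PCR. Whether the defensin probes also bind related copies was not tested, so they may not be separate measurements. Of 23 cytochrome P450s, 8 were higher and 5 lower, with CYP71B37 at 3.45 and 3.76 next below CYP78A9. Of 14 glutathione S-transferases, which conjugate toxic compounds to glutathione, 7 were higher and 5 lower, between GSTF3 at 3.08 and 3.01 and GSTU25 at -2.10 and -2.02. Both families had medians near 0 (0.01 and 0.09).

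A list of genes named for senescence, cold or dehydration had 5 of 8 members higher in 90%-late and 1 lower, SAG101 (-0.43 and -0.69), against 22.7% and 32.0% of all probes. Its highest member was SAG29, the SWEET15 given above. COR27 gave 3.19 and 2.96 and KIN1 gave 1.95 and 2.36, whereas COR15A, at -0.09 and -0.49, was not called. The methionine sulfoxide reductases, which repair oxidized methionine and were picked after the values were seen, held MSRB6 at 4.01 and 4.28 and MSRB5 at 2.94 and 2.78, with 3 of 5 higher and 2 lower. The IQ-domain proteins, calmodulin binders also picked afterwards, were divided evenly, with 8 of 18 higher and 8 lower, between iqd15 at 3.62 and 3.77 and IQD18 at -1.96 and -2.15.

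Of the tissues that a silique harvest should hold little of, floral organ, root and stem could not be examined. No probe with a symbol matched their marker lists, which says nothing of their signal. The pollen gene VGD1 gave -0.51 and -0.29 and AT1G29140 gave 0.68 and 0.51. These are ratios and show no level.

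Probes of the same gene gave a check within a slide. The 17 spots of TUA1 ran between -0.32 and 0.20 on slide 2, with an SD of 0.158, and none of their means was called. The 17 spots of AT2G17190 ran between 0.38 and 0.62 on slide 2, with an SD of 0.0562, and all 17 were called higher, although the median of the spot means was only 0.41. The 17 spots of AT5G46430 had a wider spread on slide 2 than those of the other two genes, between -1.23 and -0.55 with an SD of 0.189, and all 17 were called lower. The threshold thus took in changes well under 2-fold. Among 164 genes with a few probes each, the median range between probes of a gene was 0.29, and for 12 genes it was over 1. ICL, the isocitrate lyase of the glyoxylate cycle, had 1 probe at 3.56 and another at -0.05, and for 5 genes, among them CHB3 with -1.28 and 0.78, the probes were called in opposite directions.

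Genes next to each other on a chromosome, in the gene order of TAIR10.1, were described after their values were seen and with no test. Of the 234 adjacent measured pairs whose first gene was 4-fold or more higher in 90%-late, 12.8% had a second gene that was so too, against 4.17% of all 5853 adjacent pairs. For genes 2-fold or more lower the shares were 13.4% and 8.32%. On chromosome 3, AT3G04150, AT3G04170, AT3G04180, AT3G04190 and AT3G04200, the last described by the study as germin-like, had means of 6.93, 3.04, 4.73, 5.24 and 3.73. On chromosome 1, UGT85A7, UGT85A5 and UGT85A3 had means of 2.40, 2.47 and 2.56, and on chromosome 2 GH9B9, GH9B10 and GH9B11 had means of -2.10, -1.99 and -1.77. Whether a probe also binds related copies was not tested, so values within such a run may not be separate measurements.

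The IVT ratios were then set against those of the other regimes, which started from the same RNA pair. Each regime had its own slides, so a batch of slides cannot be told apart from the regime. Within an amplified regime the preparation of late target was not repeated, so its part cannot be told apart from the regime either. The p-values for these differences leave out the spread between such preparations. IVT minus unamplified was tested for 23174 probes, of which 1865 (8.05%) had a higher and 2100 (9.06%) a lower log2 ratio after IVT. IVT minus 2IVT was called higher for 1582 of 21988 probes (7.19%) and lower for 1544 (7.02%), and IVT minus PCR was called higher for 3918 of 22279 (17.6%) and lower for 4827 (21.7%). With median centring the balance turned against PCR, with 4465 higher and 4099 lower, and against 2IVT it moved to 1799 higher and 1327 lower, while against unamplified RNA it was 1944 and 1991. The counts also leaned on single slides. Without IVT slide 2 they were 891 higher and 781 lower against unamplified RNA, 566 and 344 against 2IVT, and 2516 and 2767 against PCR, and without IVT slide 1 they were 1132 higher and 986 lower against unamplified RNA, 797 and 428 against 2IVT, and 2712 and 3069 against PCR. Without an unamplified slide, 1083 to 1181 were higher and 949 to 1154 lower against unamplified RNA. Against 2IVT, 819 were higher and 630 lower without 2IVT slide 1, and 2326 were lower without 2IVT slide 2.

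The largest losses after IVT belonged to late genes. AT1G62060 gave 1.87 and 2.22 after IVT, against 9.52 and 9.27 unamplified (difference -7.35 ± 0.18, SE; adjusted p = 4.1e-09 by limma). AT1G62000 gave 0.89 and 2.06 after IVT, against 9.16 and 8.96 unamplified, and AT1G62225 gave 1.83 and 2.09 after IVT, against 9.15 and 9.26 unamplified. The oleosin AT3G01570 gave 3.21 and 2.83 after IVT, against 8.89 and 9.06 unamplified. All of them remained higher in 90%-late after IVT. OLEO3 and PAP85 were lower after IVT by less, with differences of -2.68 and -2.53, as were SWEET15 and SWEET11, with differences of -1.97 and -1.82.

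Other late genes had their larger ratio after IVT. BGLU19 gave 5.83 and 5.99 after IVT, against 3.12 and 2.70 unamplified (difference 3.0 ± 0.18, SE; adjusted p = 3.1e-06 by limma). PDF1.2c, a plant defensin, gave 3.27 and 3.11 after IVT, against -0.33 and -0.19 unamplified, and PDF1.3 gave 3.81 and 3.48 after IVT, against 0.43 and 0.22 unamplified. These 2 defensins were thus near 0 without amplification, as was PDF1.2, with a mean of 0.33 unamplified. CHAT differed by 2.57 and SDH2-3 by 2.29.

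Within the seed groups the differences from unamplified RNA went both ways. Over all probes tested, 8.05% had a higher and 9.06% a lower ratio after IVT. Of 20 LEA probes, 9 had a higher and 2 a lower ratio after IVT, with a median difference of 0.56. Of the oil body genes, 1 had a higher ratio after IVT (AT2G25890, by 1.27) and OLEO3 and AT3G01570 a lower one. GAMMA-VPE had the lower ratio after IVT, with a difference of -1.88, whereas ALPHA-VPE, with 5.16 and 5.01 after IVT against a mean of 5.14 unamplified, differed by -0.06 (adjusted p = 0.85 by limma).

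**Figure D4:**
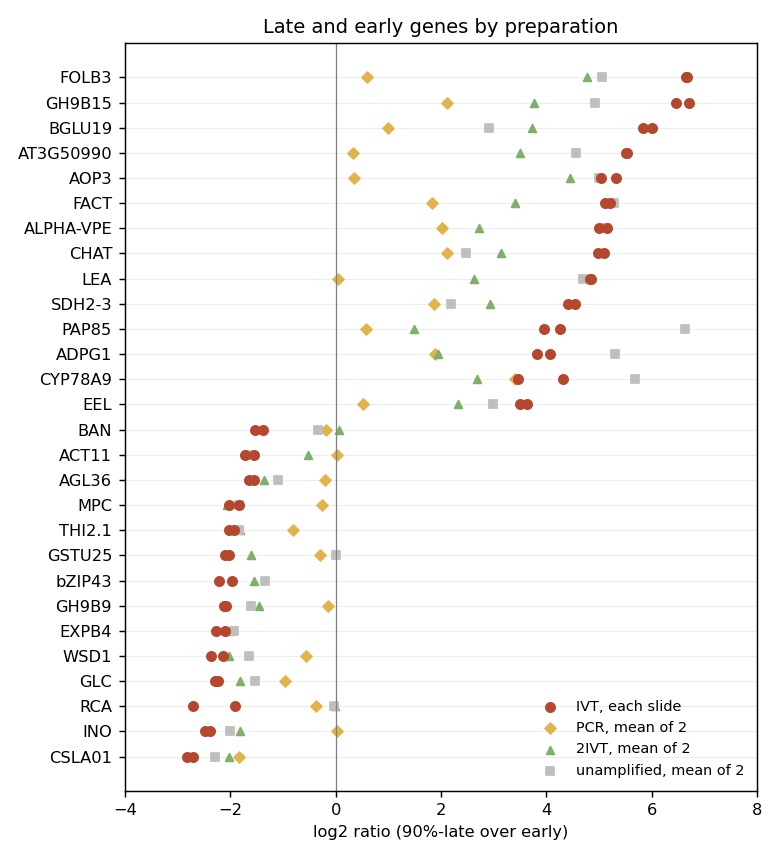
Log2 ratio (x axis, 90%-late over early) of 14 late and 14 early genes, with both IVT slides as circles and the means of 2 slides after PCR (diamonds), after 2IVT (triangles) and unamplified (squares). The IVT slides of FOLB3 lie at 6.67 and 6.65, against means of 0.60 after PCR, 4.76 after 2IVT and 5.06 unamplified.

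Early genes differed as well. RCA gave -1.91 and -2.71 after IVT, against -0.21 and 0.17 unamplified (difference -2.29 ± 0.24, SE; adjusted p = 1.0e-04 by limma), and its mean was -0.01 after 2IVT and -0.38 after PCR. GSTU25, a glutathione S-transferase, gave -2.10 and -2.02 after IVT, against 0.17 and -0.14 unamplified. AT5G15080 gave -2.50 and -2.71 after IVT, against -0.20 and -0.12 unamplified. BAN and PSAE-1 had unamplified means of -0.34 and -0.31, and their differences from unamplified RNA were -1.12 and -1.48. INO was among those whose difference from unamplified RNA was not called (-0.42, adjusted p = 0.10 by limma), with means of -1.81 after 2IVT and 0.03 after PCR.

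Differences from the regimes with the smaller inputs were largest, among named genes, at late genes, several of which the IVT ratios themselves had chosen. AT2G22510 gave 3.96 and 4.58 after IVT, against 0.45 and 0.50 after 2IVT, the largest difference of a named gene in that comparison (3.80). FOLB3 gave 6.67 and 6.65 after IVT, against 0.53 and 0.67 after PCR (difference 6.06). AT3G09440 stood at the opposite end against 2IVT, with -2.86 and -2.55 after IVT and 0.00 and -0.27 after 2IVT. AT1G29670 changed sign against PCR, with -1.67 and -1.88 after IVT and 1.11 and 1.55 after PCR.

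**Figure D5:**
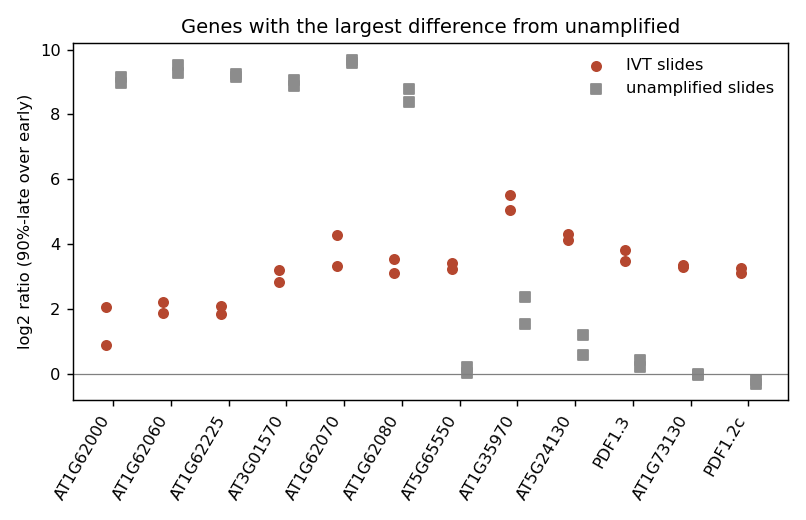
Log2 ratio (y axis, 90%-late over early) on each IVT slide (circles) and each unamplified slide (squares) for the 6 named genes furthest below and the 6 furthest above the unamplified ratio. AT1G62060 lies at 1.87 and 2.22 after IVT, against 9.52 and 9.27 unamplified, and PDF1.2c at 3.27 and 3.11 after IVT, against -0.33 and -0.19 unamplified.

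Some probes had values after IVT and none in another regime. Both IVT slides and neither 2IVT slide had a value for 448 probes, neither PCR slide for 258 and neither unamplified slide for 78. The reverse, values on both slides of the other regime and on neither IVT slide, held for 42 probes of 2IVT, 162 of PCR and 155 of unamplified RNA. Of the 78 probes without an unamplified value, AT1G66850 had the highest ratio among those with a symbol, at 3.26 and 3.20, and AT2G28030 the lowest, at -1.52 on both slides. The slide-to-slide agreement of IVT was not even for every gene. AT2G44210 gave -0.76 and 1.85, RALFL34 gave -1.16 and 0.70, and AT5G38160, described by the study as a protein of the protease inhibitor and lipid transfer family, gave 2.30 and 4.69. The first pair changed sign between slides and were not called, while AT5G38160 was called higher in 90%-late with an SD of 1.69.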

How the data were processed

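Ratios were from 2-colour long oligonucleotide arrays. The deposited values are log2 ratios that the authors made from GenePix intensities with elements of SNOMAD in S-PLUS, which scale a slide by its global mean and then by local means, first across its surface and then across intensity. Whether trimming of dim spots, interpolation and replacement of saturated spots are in these values is not stated by the sources. Depth has no meaning for these arrays, and the number of slides (2 per regime) limits the precision.

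The sign was turned, and no further normalization was applied. A single limma fit (lmFit, eBayes) over 8 slides with 4 regime means shared the estimate of spread, with 6.65 prior degrees of freedom. Adjusted p-values (Benjamini-Hochberg) under 0.05 were called. The fit was also run on simulated slides of 20638 probes with normal noise, no missing values and 50 probes changed at each fold. For 90%-late against early it recovered 46% of changes of 1.5-fold, 84% of 2-fold and 100% of 4-fold. It made 7 false calls among 20438 unchanged probes. Of 14539 probes with a symbol, each a single one, 14533 matched a locus of TAIR10.1, and 13111 had values on both IVT slides. Probes without a symbol were tested and not named. Same-numbered slides of different regimes did not deviate together (r of the slide differences -0.06 to 0.03), so the numbers do not pair slides.

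The members and lists were chosen with earlier results of these data known. Named genes were the 20 highest and 20 lowest after IVT among called probes with 1 sign, the 6 at either end of each difference between regimes, the 6 with the largest slide difference, members of the lists (up to 12, or 4 at either end) and genes the study names; not every such gene is printed, and other named genes were chosen after their values were seen. Of 61 lists, 13 had no measured member, and the 48 others held 445 probes, of which 151 were higher and 140 lower in 90%-late. Alternatives were median centring, quantile normalization, values on all 8 slides, trend and robust moderation, a replicate block, only the regimes compared, 1 slide left out, probes on 1 slide, and gene means. Software was limma 3.58.1 in R 4.3.3, with pandas 2.3.3, numpy 2.4.6 and matplotlib 3.10.9 under Python 3.11.15.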

Additional observations from a re-analysis of the deposited data

Results flagged for a closer look

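The 90%-late over early contrast differed between regimes by a limma test of the difference itself for many probes. IVT minus unamplified was higher for 1865 and lower for 2100 probes, IVT minus 2IVT higher for 1582 and lower for 1544, and IVT minus PCR higher for 3918 and lower for 4827.

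Some named genes were called in 1 direction after IVT and had a mean of the opposite sign in unamplified RNA. Those given here are examples and not a full list. PDF1.2c, with a mean of 3.19 after IVT and -0.26 unamplified, was another. AT3G03230, described by the study as of an esterase and lipase family, gave 1.77 on both IVT slides, against -0.79 and -0.85 unamplified (difference 2.59). UGT72E2 gave 1.25 and 1.12 after IVT, against -0.30 and -0.97 unamplified (difference 1.82). BGLU24 gave 1.0 and 1.07 after IVT, against -0.46 and -0.66 unamplified (difference 1.60). AT1G33110 gave -1.16 and -1.58 after IVT, against 0.88 and 0.94 unamplified (difference -2.28). Their 2IVT means were 0.93, 1.02, 1.01 and -0.95 in the same order, and their PCR means were -0.35, -0.60, -0.62 and 1.29. The parts of slide batch and of the unrepeated preparation of late target in these differences cannot be told apart from that of the regime.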

How the results depend on the processing

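The gene results named by rank (189 results, 2596 values) were picked for extreme values on these same slides. That choice favours a kept direction and says little of other calls. They kept their direction under every alternative run, and 3 values lost the call. All 3 were of AT1G12020 in IVT minus PCR, at -3.92 under quantile normalization and -3.02 and -3.14 with 1 IVT slide left out. Median centring gave 6311 higher and 6575 lower for 90%-late against early and 4465 and 4099 for IVT minus PCR, so the direction with more calls turned in IVT minus PCR. Quantile normalization gave 837 higher and 967 lower for IVT minus unamplified, 397 and 353 for IVT minus 2IVT, and 1166 probes 2-fold lower in 90%-late (main 1956). In the fit of only the regimes compared, 1017 probes were lower for IVT minus 2IVT. With 1 slide left out, whose regime is then assumed to vary like the others, the counts for 90%-late against early were 3726 to 5684 higher (lowest without IVT slide 2) and 4929 to 8085 lower. They were 891 to 2217 higher and 781 to 2556 lower for IVT minus unamplified, 566 to 2173 and 344 to 2326 for IVT minus 2IVT, and 2516 to 4235 and 2767 to 5370 for IVT minus PCR, the lowest each without IVT slide 2. With a replicate block, although the numbers do not pair slides, the counts were 5291 and 7504 for 90%-late against early, 1722 and 1842 for IVT minus unamplified, 1430 and 1365 for IVT minus 2IVT, and 3811 and 4652 for IVT minus PCR. The SD between slides was 0.162 after median centring and 0.130 after quantile normalization, alternatives chosen after seeing the data. The cause of these shifts was not tested. Spot intensities were not used here, so how far a ratio rests on a dim channel was not analysed.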
